A study of Saccharomyces cerevisiae with 8 samples.

Results

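The data describe 8 genes of uridine and cytidine nucleotide synthesis in nascent RNA from budding yeast with and without the chromatin assembly factor CAF-I: the enzyme genes URA2, URA4, URA1, URA5, URA10, URA6 and URA7, and the regulator gene PPR1. They were picked by gene name, with earlier results of these libraries in view, among them lower counts over URA1 and URA4 in the mutants. All 8 were found among the 5498 features of the main table, most of them protein-coding transcripts (called ORF-Ts), and 7272 features were counted in all. Because the mutant and wild-type counts helped to choose them, differences of these 8 genes from wild type are described with their standard errors, and their p-values are not printed.

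Yeast builds pyrimidine nucleotides from glutamine, bicarbonate and aspartate. Ura2 catalyses the first steps and is the enzyme that UTP inhibits, Ura4 closes the ring, Ura1 oxidises dihydroorotate to orotate, Ura5 and Ura10 add the ribose phosphate, and Ura3 removes a carboxyl group to give UMP. Ura6 then phosphorylates UMP, and Ura7, with its minor relative Ura8, turns UTP into CTP. Ppr1 is a zinc cluster activator that, in budding yeast, senses early intermediates of the pathway and drives URA1, URA3, URA4 and URA10, whereas URA2 is held down by UTP through a choice of start site.

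The method was native elongating transcript sequencing (NET-seq), which sequences the 3′ ends of RNA held in RNA polymerase II pulled down through a FLAG tag on its subunit Rpb3. There were 4 groups of 2 biological replicates: the cac1Δ strain YSB3062, the cac2Δ strain YSB3063, the cac3Δ strain YSB3064, and the wild type YSC0001. All 4 strains carried Rpb3-FLAG and grew to mid-log phase in the rich medium YPD. CAF-I deposits histones H3 and H4 behind the replication fork, and Cac1, Cac2 and Cac3 are its subunits. One strain stood for each genotype, and the wild type bears a name from another strain series than the mutants, so the deletion and other strain differences cannot be told apart. Each deleted gene (RLF2 for Cac1, CAC2, MSI1 for Cac3) was lowest in its own mutant: RLF2 averaged 13.8 ± 0.396 in cac1 and 38.2 ± 1.03 in wild type, CAC2 19.9 ± 0.474 in cac2 and 60.9 ± 5.63 in wild type, and MSI1 32.2 ± 3.16 in cac3 and 71.8 ± 1.91 in wild type. These levels, like all below unless another unit is named, are reads per kilobase and per 1000000 reads (RPKM) after scaling of the libraries, with the SD over 2 libraries. Reads counted per library ran from 1880299 to 7705151, with the shallowest libraries the first replicates of wild type, cac1 and cac2.

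In wild type, the 8 genes spanned from a highly transcribed enzyme gene to a weakly transcribed regulator. URA1 (YKL216W, chromosome XI, 25145 to 26457, plus strand) averaged 817 ± 1.04 RPKM and stood above 98.4% of ORF-Ts. URA4 (YLR420W, chromosome XII, 963704 to 964960, plus strand) followed at 319 ± 0.966, then URA5 (YML106W, chromosome XIII, 56473 to 57625, plus strand) at 296 ± 7.84. URA7 (YBL039C, chromosome II, 143859 to 145811, minus strand) averaged 289 ± 7.90 in wild type, and its libraries overlapped those of URA5. URA2 (YJL130C, chromosome X, 165596 to 172956, minus strand), which encodes the first enzyme and is the longest of the 8, averaged 209 ± 6.76. URA10 (YMR271C, chromosome XIII, 806741 to 808117, minus strand) at 127 ± 7.35 and URA6 (YKL024C, chromosome XI, 392072 to 393056, minus strand) at 124 ± 4.98 overlapped each other. PPR1 (YLR014C, chromosome XII, 171997 to 175021, minus strand) was lowest at 28.4 ± 1.35 and stood above 16.8% of ORF-Ts. Coordinates are those of the deposited tables, for which no genome build is stated. The features of URA6 and URA7 each also carried the name of a small overlapping reading frame, so their reads belong to the pair of names, and the URA6 feature was classed as other rather than as an ORF-T.

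The order of the levels differed in the mutants. URA1 stayed first, with averages of 404 ± 41.3 in cac1, 382 ± 6.66 in cac2 and 669 ± 5.49 in cac3. URA7 stood second in each mutant, at 300.1 ± 0.405 in cac1, 320.0 ± 18.1 in cac2 and 329 ± 5.59 in cac3, with no overlap with the gene on either side of it. URA6 stood above URA10 in each mutant. URA4 was the fourth in each mutant, its libraries overlapping those of URA5 in cac3 alone. PPR1 was last throughout.

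**Figure D1:**
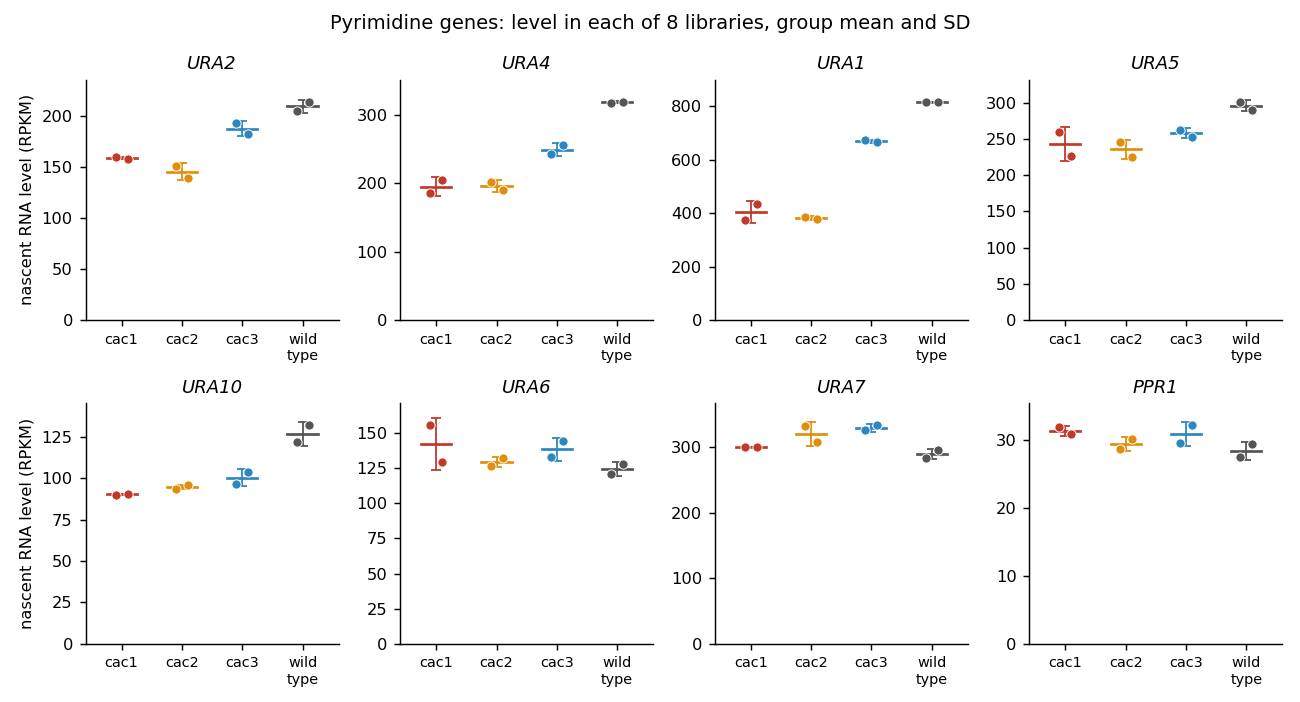
Nascent RNA level (RPKM, linear axis from 0) of each of the 8 genes in every library: points are libraries, bars the mean and whiskers the SD of 2 libraries, for cac1, cac2, cac3 and wild type. For URA2, URA4, URA1, URA5 and URA10 all 6 mutant libraries lie below both wild-type libraries, whereas for URA7 all 6 lie above both.

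Among the enzymes leading to UMP, all 5 genes with more than a few reads were lower in the mutants, with the averages of cac3 nearest to wild type. URA2, for the multifunctional first enzyme, had 159 and 158 RPKM in cac1, 151 and 140 in cac2, 193 and 182 in cac3, and 204 and 214 in wild type. All 6 mutant libraries were below both wild-type ones, and cac3 lay between the other mutants and wild type. The log2 change of URA2 against wild type was -0.40 (SE 0.05) in cac1, -0.53 (SE 0.05) in cac2 and -0.16 (SE 0.05) in cac3.

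URA4 encodes dihydroorotase. It had 185 and 205 RPKM in cac1, 202 and 190 in cac2, 243 and 256 in cac3, and 318 and 319.7 in wild type. The mutant libraries did not reach the wild-type ones, cac1 and cac2 overlapped each other, and cac3 stood between them and wild type. The log2 change of URA4 was -0.70 (SE 0.07) in cac1, -0.70 (SE 0.07) in cac2 and -0.35 (SE 0.07) in cac3.

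URA1, for dihydroorotate dehydrogenase, showed the lowest log2 changes of the 8 genes in cac1 and cac2. Its levels were 374 and 433 RPKM in cac1, 387 and 378 in cac2, 672 and 665 in cac3, and 816 and 818 in wild type. The cac1 and cac2 libraries overlapped each other and lay far below those of cac3, which in turn lay below wild type. Its log2 change was -1.01 (SE 0.07) in cac1, -1.10 (SE 0.07) in cac2 and -0.29 (SE 0.06) in cac3. The 2 cac1 libraries were 0.21 apart on the log2 scale, against a counting error of 0.05 for their difference.

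URA5 and URA10 encode the major and minor orotate phosphoribosyltransferase. URA5 had 259 and 227 RPKM in cac1, 245 and 226 in cac2, 263 and 253 in cac3, and 302 and 291 in wild type. The cac1 libraries overlapped those of both other mutants, and no mutant library reached wild type. Its log2 change was -0.29 (SE 0.08) in cac1, -0.33 (SE 0.08) in cac2 and -0.20 (SE 0.08) in cac3. URA10 had 90.3 and 90.6 RPKM in cac1, 93.9 and 95.8 in cac2, 96.7 and 104 in cac3, and 122 and 132 in wild type. Here the mutant libraries lay in a narrow band below wild type. The log2 change of URA10 was -0.50 (SE 0.08) in cac1, -0.43 (SE 0.08) in cac2 and -0.35 (SE 0.07) in cac3. URA10 made up 27.2% ± 1.92 of the summed RPKM of the 2 genes in cac1, 28.7% ± 1.49 in cac2, 28.0% ± 1.58 in cac3 and 30.0% ± 1.77 in wild type, and these shares overlapped wild type in cac2 and cac3 but not in cac1.

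URA3, for the decarboxylase that gives UMP, held 17 reads over the 6 mutant libraries and 2 reads over the 2 wild-type libraries. The second cac1 and first wild-type libraries had no read over it, where a count of 0 allows up to 0.674 RPKM in that cac1 library and 1.75 RPKM in that wild-type library. The labels do not give the state of URA3 in these strains, and no fold is given for it.

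The genes after UMP and the regulator did not share this pattern. URA6, for UMP kinase, had 156 and 129 RPKM in cac1, 127 and 132 in cac2, 133 and 144 in cac3, and 121 and 128 in wild type. Of its 6 mutant libraries, 5 were above both wild-type ones, and the cac1 pair was 0.27 apart on the log2 scale. URA7, for the major CTP synthetase, had 299.8 and 300.4 RPKM in cac1, 333 and 307 in cac2, 326 and 333 in cac3, and 284 and 295 in wild type. All 6 mutant libraries of URA7 were above wild type by a small margin, with log2 changes of 0.05 (SE 0.06) in cac1, 0.14 (SE 0.06) in cac2 and 0.19 (SE 0.06) in cac3. PPR1 had 31.8 and 30.8 RPKM in cac1, 28.7 and 30.2 in cac2, 29.6 and 32.1 in cac3, and 27.5 and 29.4 in wild type. The activator gene's own libraries overlapped between cac2 and wild type, and its log2 change was 0.12, 0.04 and 0.10 in cac1, cac2 and cac3 (SE 0.07 to 0.08).

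**Figure D2:**
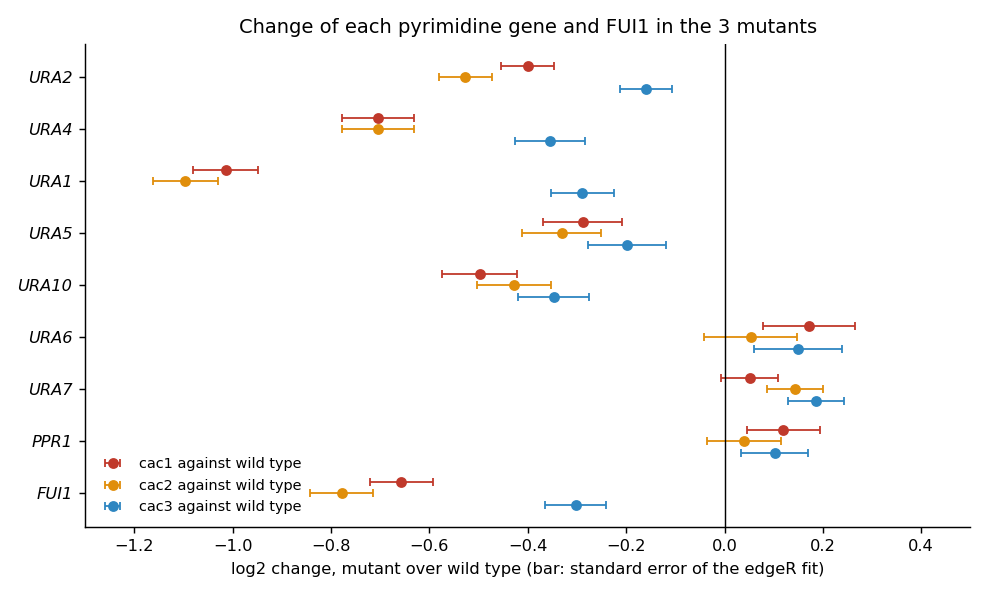
Log2 change over wild type of each of the 8 genes, in pathway order, and of the uridine permease gene FUI1, in cac1, cac2 and cac3 (horizontal axis; whiskers are the SE of the edgeR fit). URA1 lies at -1.01 in cac1, -1.10 in cac2 and -0.29 in cac3, while URA6, URA7 and PPR1 lie between 0.04 and 0.19.

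Of the 8 genes, 5 (URA2, URA4, URA1, URA5 and URA10) were lower than wild type at an adjusted p below 0.05 in cac1, the same 5 in cac2, and 3 (URA4, URA1 and URA10) in cac3, by edgeR's quasi-likelihood test over 7271 features with Benjamini-Hochberg adjustment. The share of all features called lower was 8.38% in cac1, 5.94% in cac2 and 2.38% in cac3. None of the 8 was called higher, where 10.8% of all features were in cac1, 9.57% in cac2 and 3.7% in cac3. Since these contrasts helped to choose the genes, nothing is read from these counts. The median log2 change of the 8 was -0.34 in cac1, -0.38 in cac2 and -0.18 in cac3, beside medians of 0.01, 0.01 and 0.002 over all features. In the mean of the 3 mutants the same 5 genes were called lower, where 8.86% of all features were. The cac3 count dropped to 0 without either cac3 library or without the second wild-type library, and to 1 without the first wild-type library. The call of URA5 was lost without either wild-type library in cac1, in cac2 and in the mean of the mutants. Its cac1 call was also lost without the second cac1 or second cac3 library, without further scaling and with only the groups compared, and its cac2 call without the second cac2 library. The call of URA10 was lost in cac2 without the second wild-type library and in cac3 in DESeq2. In a bulk culture, fewer polymerases on a gene in each cell and fewer cells transcribing it cannot be told apart.

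Ratios within a library do not depend on its scaling. URA1 made up 25.8% ± 2.44 of the summed RPKM of the 8 genes in cac1, 24.9% ± 0.366 in cac2, 34.1% ± 0.461 in cac3 and 37.0% ± 0.329 in wild type. Each mutant library had a lower share than either wild-type library. URA1 stood at 1.68 ± 0.328 times URA5 in cac1, 1.62 ± 0.0664 in cac2, 2.59 ± 0.0470 in cac3 and 2.76 ± 0.0765 in wild type. Against URA4, it stood at 2.07 ± 0.0658 in cac1, 1.95 ± 0.0532 in cac2, 2.68 ± 0.122 in cac3 and 2.56 ± 0.00448 in wild type. Both cac3 libraries had a URA1 to URA4 ratio above those of wild type, and all cac1 and cac2 libraries one below.

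The mutants also differed among themselves, and these comparisons used no wild-type library for the difference itself. URA2 was lower in cac2 than in cac3 (log2 difference -0.37, SE 0.05, edgeR adjusted p = 0.00922). Counts of these mutant libraries helped to choose the 8 genes, so differences between mutants are a description too. The p-values printed for URA2 are therefore not an independent test. The lower counts of URA1 and URA4 in the mutants were known at that choice, so no p-value is printed for these 2 genes. URA1 differed by -0.72 (SE 0.07) between cac1 and cac3 and by -0.81 (SE 0.07) between cac2 and cac3. URA4 differed by -0.35 (SE 0.07) in each of these comparisons. Of all features, 0.688% were called lower in cac1 than in cac3, and 0.261% lower in cac2 than in cac3, beside 2 of the 8 genes in each (URA1 and URA4 in cac1, URA1 and URA2 in cac2). The URA4 call was lost without either cac3 library, without the first cac1, the second cac2 or either wild-type library, without further scaling and with only the 2 groups in the fit. The URA2 call was lost without the second cac2 or the first cac3 library.

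Several other pairs of mutant values did not pass the threshold. URA2 in cac1 against cac3 gave -0.24 (95% interval -0.36 to -0.12, edgeR adjusted p = 0.0557), a difference that passed in DESeq2 (adjusted p = 0.0114) and without either cac2 library. The interval of URA4 in cac2 against cac3 was -0.51 to -0.19, and it was called in DESeq2 and without the first cac1 library. URA5 gave -0.09 (-0.27 to 0.08) in cac1 against cac3 and -0.13 (-0.31 to 0.04) in cac2 against cac3. URA10 gave -0.15 (-0.31 to 0.01) in cac1 against cac3 and -0.08 (-0.24 to 0.08) in cac2 against cac3. Both transferase genes thus had intervals that include 0. Between cac1 and cac2, 0 of the 8 genes passed by edgeR or DESeq2, 1 had an unadjusted edgeR p below 0.05, and 0.055% of all features were called in either direction. The log2 difference between cac1 and cac2 was -0.0009 (95% interval -0.16 to 0.16) for URA4 and 0.08 (95% interval -0.06 to 0.23) for URA1.

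The deposited tables also count reads in a window at each gene's 5′ end, of up to 600 bases, under a column heading that speaks of divergence. Its strand and its exact placement about the 5′ end are not stated. Suppose it counted the gene's own strand and took in the first 100 bases. At each gene's mean density, those bases alone would give about 648 reads at URA2 and 377 at URA10 over the 8 libraries. The URA2 and URA10 windows held 325 and 63. The windows of the other 6 genes held more reads than that expectation. By ratio they ran from 1504 against 1117 at URA7 to 1057 against 108 at PPR1. Either strand could give those counts, so these 6 do not tell the strands apart. At URA2 and URA10 the windows held fewer reads than own-strand counting from the 5′ end into the gene would give at that density. Window levels are in reads per 1000000 reads (RPM).

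At URA1 the window held 58.9 and 74.3 RPM in cac1, 70.7 and 77.2 in cac2, 84.5 and 83.9 in cac3, and 122 and 109 in wild type. All mutant libraries were below both wild-type libraries, as over the gene itself. At URA4 it held 41.4 and 42.1 RPM in cac1, 49.0 and 46.0 in cac2, 50.9 and 50.7 in cac3, and 60.8 and 62.7 in wild type. The mean log2 change of the 3 mutants was -0.62 (SE 0.11) for the URA1 window and -0.41 (SE 0.09) for the URA4 window. At URA2 the window went the other way, with few reads: 6.49 and 11.5 RPM in cac1, 12.6 and 11.7 in cac2, 8.83 and 11.1 in cac3, and 4.89 and 5.38 in wild type. Its mean log2 change was 1.00 (SE 0.24), on 9 and 40 reads in the 2 wild-type libraries. The URA7 window averaged -0.34 (SE 0.10), opposite in sign to the small change over the gene. That window is 408 bases long, and MRPL16 starts 308 bp from the 5′ end of URA7 on the opposite strand. The window may therefore hold reads of MRPL16, which was not tested.

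In the mean of the mutants, 1 of the 8 windows was called higher (URA2) and 3 lower (URA1, URA4 and URA7), where 18.2% of 5479 windows were called higher and 4.42% lower, and the median window changed by 0.15. DESeq2 called 1 of them (URA1), as did edgeR without the second wild-type library. Between mutants none of the 8 windows passed in edgeR, with 2 at an unadjusted p below 0.05 in cac1 against cac3 and 0 in the other pairs, and 0 in DESeq2. In each pair of mutants 0.0183% of all windows were called. The authors' deposited table gives the ratio of gene to window reads, which for URA2 was 181 and 101 in cac1, 88.4 and 87.8 in cac2, 161 and 121 in cac3, and 308 and 293 in wild type. No mutant library reached wild type. The natural log of the mutant over the wild-type ratio in the authors' deposited table ran from -1.25 to -0.53 for URA2, from 0.24 to 0.40 for URA7 and from -0.43 to 0.17 for URA1.

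**Figure D3:**
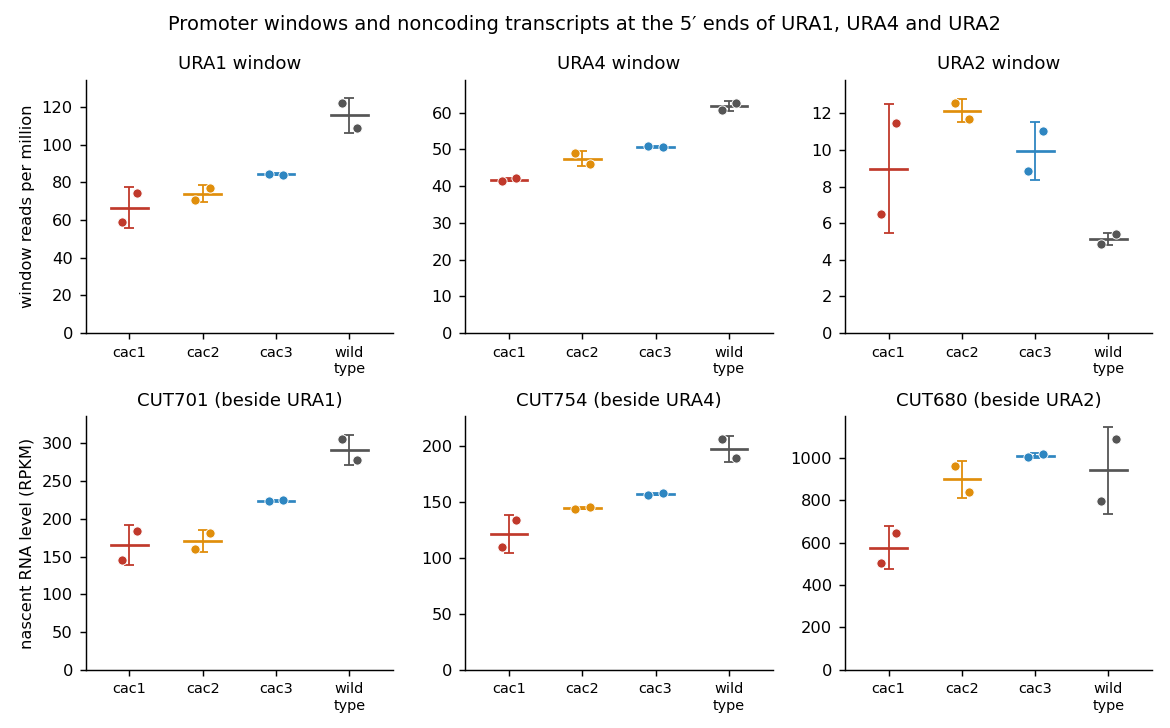
Top, window reads per 1000000 reads at URA1, URA4 and URA2; bottom, RPKM of the noncoding transcripts CUT701, CUT754 and CUT680 beside them, in each library of cac1, cac2, cac3 and wild type (points, with mean and SD). The mutants lie below wild type for URA1, CUT701, URA4 and CUT754, above it for the URA2 window, and for CUT680 cac1 alone lies below both wild-type libraries.

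Cryptic unstable transcripts (CUTs), short RNAs that the nuclear exosome degrades, are annotated beside 3 of these promoters. The CUTs and neighbouring genes below were named for lying beside genes chosen with earlier results of these libraries in view. Their adjusted p-values are therefore a description and no independent support. CUT701 (chromosome XI, 24221 to 24917) starts 228 bp from the 5′ end of URA1 on the opposite strand and lies partly in the span of its window, so the values share reads if the window counts that strand. It had 146 and 184 RPKM in cac1, 160.0 and 181 in cac2, 224 and 225 in cac3, and 305 and 278 in wild type. CUT701 fell in cac1 (log2 change -0.79, SE 0.11, edgeR adjusted p = 0.000993) and in cac2 (-0.76, SE 0.11, edgeR adjusted p = 0.00129), and had -0.37 (SE 0.10, edgeR adjusted p = 0.0595) in cac3. The cac3 change passed with only the groups compared (edgeR adjusted p = 0.0227) and without either cac1 library (0.0293 and 0.023). All 6 mutant libraries were below both wild-type ones, and the mean of the mutants passed at each setting tried.

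CUT754 (chromosome XII, 963124 to 963548) starts 156 bp from the 5′ end of URA4, on the opposite strand. It lies wholly or partly in the span of the URA4 window of 600 bases, depending on how that window is placed. The values thus share reads if the window counts that strand. It had 109 and 134 RPKM in cac1, 144 and 145 in cac2, 156 and 158 in cac3, and 206 and 189 in wild type. CUT754 fell in cac1 (log2 change -0.65, SE 0.10, edgeR adjusted p = 0.00214) and in cac2 (-0.43, SE 0.10, edgeR adjusted p = 0.0176), and had -0.31 (SE 0.09, edgeR adjusted p = 0.073) in cac3. That cac3 change passed with only the groups compared (edgeR adjusted p = 0.0319) and without either cac1 library (0.0312 and 0.049). Its cac2 call was lost in DESeq2 and without any one of the cac2 or wild-type libraries. The genes that overlap the 3′ ends of URA1 and URA4 on the opposite strand did not pass: YKL215C averaged 0.14 (SE 0.07, edgeR adjusted p = 0.184) and RPN13, for a proteasome ubiquitin receptor, 0.006 (SE 0.07, edgeR adjusted p = 0.974) in the mean of the mutants. Of the neighbours of the other genes within 500 bp, PML39, the divergent partner of URA5, had -0.28 in cac2 (SE 0.08, edgeR adjusted p = 0.0377; 0.13 and 0.0881 without the first or second wild-type library, 0.202 in DESeq2) and -0.19 in the mean of the mutants (SE 0.06, edgeR adjusted p = 0.0555). YKL023W beside URA6, MRPL16 beside URA7, BRE2 beside PPR1 and CUT282 at the 3′ end of URA5 passed in no comparison.

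CUT680 (chromosome X, 172956 to 173060) lies on the strand of URA2 and ends at the 5′ end of the URA2 feature. It had 504 and 648 RPKM in cac1, 963 and 839 in cac2, 1003 and 1020.0 in cac3, and 796 and 1088 in wild type. CUT680 fell in cac1 (log2 change -0.73, SE 0.14, edgeR adjusted p = 0.00601; 0.167 without the second wild-type library), while cac2 had -0.15 and cac3 0.03. It was also lower in cac1 than in cac3 (-0.77, SE 0.13, edgeR adjusted p = 0.0269), a call lost without the first cac1 or either cac3 library. Between cac1 and cac2 it differed by -0.58 (SE 0.15, edgeR adjusted p = 0.354).

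Of 20 further genes of pyrimidine metabolism, 19 were found and tested. This list was drawn up with earlier results of these libraries known. The adjusted p-values given below for its genes are therefore a description and no independent support. In the mean of the mutants 0 rose and 2 fell (FUI1 and FCY21), beside 11.9% of all features called higher and 8.86% lower, and the median of the 19 was -0.01. FUI1, the uridine permease gene, had 136 and 147 RPKM in cac1, 128 and 132 in cac2, 180.5 and 181 in cac3, and 220.0 and 226 in wild type. FUI1 fell in cac1 (log2 change -0.66, SE 0.06, edgeR adjusted p = 0.000185), in cac2 (-0.78, SE 0.06, edgeR adjusted p = 5.35e-05) and in cac3 (-0.30, SE 0.06, edgeR adjusted p = 0.0176). It was lower in cac1 than in cac3 (-0.35, SE 0.06, edgeR adjusted p = 0.0269) and in cac2 than in cac3 (-0.48, SE 0.06, edgeR adjusted p = 0.0053). Its call in cac3 was lost without any one of the cac3 or wild-type libraries. Its call in cac1 against cac3 was lost without the first cac1 library or any cac3 or wild-type library and with only the groups compared, and that in cac2 against cac3 without the second cac2 or either cac3 library. Its mean over the mutants was -0.58 (SE 0.05, edgeR adjusted p = 6.96e-05) and passed at each setting tried.

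FCY21, a putative purine-cytosine permease gene, had 29.1 and 27.1 RPKM in cac1, 31.3 and 30.4 in cac2, 28.9 and 30.5 in cac3, and 37.8 and 34.9 in wild type. All 6 mutant libraries were below both wild-type ones. FCY21 fell in the mean of the mutants (log2 change -0.29, SE 0.07, edgeR adjusted p = 0.0195), a call lost in DESeq2 and without either wild-type library. URA8, the minor CTP synthetase gene, had -0.01 (95% interval -0.16 to 0.14, edgeR adjusted p = 0.932), and its share of the summed URA7 and URA8 RPKM was 27.6% ± 1.25 in cac1, 26.6% ± 0.791 in cac2, 25.7% ± 1.07 in cac3 and 28.5% ± 0.382 in wild type. FUR4, the uracil permease gene, had -0.13 (SE 0.07, edgeR adjusted p = 0.202).

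Taken one mutant at a time, 2 of the 19 further genes rose and 3 fell in cac1, 0 rose and 1 fell in cac2, and 0 rose and 1 fell in cac3. Of all features, 10.8% rose and 8.38% fell in cac1, 9.57% rose and 5.94% fell in cac2, and 3.7% rose and 2.38% fell in cac3. The falling genes were FUI1, FCY21 and CDC8 in cac1, and FUI1 in cac2 and in cac3. URH1, for uridine nucleosidase, rose in cac1 (log2 change 0.28, SE 0.08, edgeR adjusted p = 0.0381), as did PHM8, for a nucleotidase (0.71, SE 0.22, edgeR adjusted p = 0.0443). CDC8, for thymidylate kinase, fell there (-0.40, SE 0.12, edgeR adjusted p = 0.0442). All 3 of these calls were lost in DESeq2, and without the second wild-type library the adjusted p was 0.546 for URH1, 0.289 for PHM8 and 0.202 for CDC8.

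**Figure D4:**
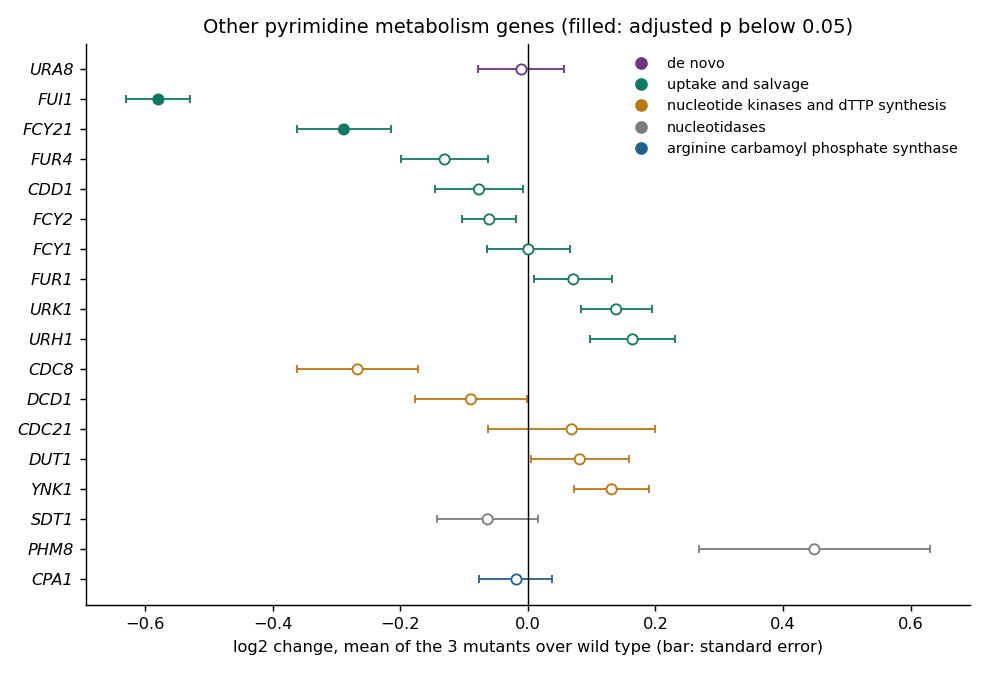
Log2 change in the mean of the 3 mutants over wild type for the other genes of pyrimidine metabolism, by role (horizontal axis; whiskers are the SE; filled points passed an edgeR adjusted p of 0.05), leaving out URA3 for its few reads. FUI1 at -0.58 and FCY21 at -0.29 are the filled points, and the rest lie between -0.27 and 0.45.

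Profiles were compared over the 8 libraries as log2(RPKM + 1), each centred on its own mean. URA1 was set against 5123 features, the ORF-Ts with a mean RPKM of at least 5 and URA6, which was classed as other. The 5 nearest to URA1 were RIB4, for lumazine synthase of riboflavin synthesis, at a root-mean-square difference of 0.069, MDH2, for cytosolic malate dehydrogenase, at 0.102, FUI1 at 0.178, PDR5, for a drug efflux pump, at 0.188, and URA4 at 0.199. RIB4 averaged 200.4 ± 15.5 RPKM in cac1, 187 ± 2.09 in cac2, 306 ± 10.3 in cac3 and 414 ± 27.1 in wild type, in the same order of groups as FUI1. The other members stood at ranks 17 (URA2), 63 (URA10), 224 (URA5), 3007 (URA7), 3142 (PPR1) and 3562 (URA6). These points share the same 8 libraries in 4 groups, and the ranks are a description.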

How the data were processed

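The 8 libraries hold RNA from RNA polymerase II, made by a NET-seq method that the labels cite. The sources used here do not name the aligner, genome build, read filters or use of strand. The authors deposited whole-number counts of reads over each feature. They also deposited estimated counts in a window at each 5′ end, by the authors' entry 0.5 where empty, which was set back to 0. Levels did not use the deposited RPKM and were recomputed from the counts on scaled library totals. The authors deposited the ratio of gene to window count, and the deposited natural log values equal the log of each mutant ratio divided by that of the wild-type library with the same number.

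The 8 genes and the list of 20 further genes were chosen with earlier results of these data known. One more gene of that list is not reported here. All 8 matched the RefSeq gene table by locus tag. A feature was tested if 2 or more libraries reached an RPKM of 1 (7271 features). One edgeR 4.0.16 fit under R 4.3.3 (glmQLFit, glmQLFTest, a coefficient per group, no block) held all 8 libraries, with Benjamini-Hochberg adjustment over all features and a threshold of 0.05. Scaling used edgeR's TMM factors over ORF-Ts, which ran from 0.964 to 1.02. Windows with at least 1 RPM in 2 or more libraries (5479) were fitted separately with the scaled totals of the features. The standard error is the size of the log2 change over the square root of F, and 95% intervals use 10.7 degrees of freedom. The biological coefficient of variation was 8.13%. The fitting was tested on simulated data. Alternatives were DESeq2 1.42.0, other scalings, no filter, a replicate block, only the groups compared, and leaving out each library. Levels for likeness had a pseudocount of 1. Named genes were the 8, the further genes past the threshold in the mean of the mutants with URA3 and URA8, the deleted genes, the 5 nearest to URA1, and features overlapping one of the 8 or within 500 bp of its 5′ end. URH1, PHM8, CDC8 and FUR4 were named after their values were seen. A floor of 3 reads stands for a count of 0 and covers counting error only. Tables and figures were made with Python 3.11.15, pandas 2.3.3, numpy 2.4.6, scipy 1.17.1 and matplotlib 3.10.9.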

Additional observations from a re-analysis of the deposited data

How the results depend on the processing

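With 2 libraries a group, calls near the threshold depend on single libraries. Leaving out 1 library at a time, the number of the 8 genes called ran from 4 to 5 in cac1 against wild type, from 3 to 5 in cac2, from 0 to 3 in cac3, from 4 to 6 in the mean of the mutants, and from 1 to 3 in cac1 and in cac2 against cac3, and stayed 0 in cac1 against cac2. Windows ran from 1 to 4 and further pathway genes from 1 to 3. In cac1 against cac3 the count was 1 without further scaling and 1 with only the groups compared, against 2 as reported. Without further scaling 5 further pathway genes passed and in DESeq2 1, against 2 as reported, and DESeq2 called 1 window, against 4. No called change reversed its direction under these settings. Leaving out the scaling moved the median feature by up to 0.08 against wild type. It brought URA7 past the threshold as higher in the mean of the mutants, as did the block and leaving out the second cac2 library. The cause was not tested.

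Same-numbered replicates deviated together in each of the 6 pairs of groups (correlation 0.408 to 0.578 over 6079 features), but the labels tie no number to a shared batch and there are only 2 numbers. With the replicate number as a block, 6 of the 8 genes were called in cac3 against wild type, in place of 3, and 5, 5 and 6 in cac1, cac2 and the mean of the mutants. Among these, URA7 was higher, by a log2 change of 0.18 in cac3 and 0.12 in the mean, and the other called genes were lower. Between mutants the block gave 3 in cac1 against cac3 and 3 in cac2 against cac3 (URA1, URA2 and URA4 in both) and 0 in cac1 against cac2. The adjusted p under the block was 0.0023 for URA2 in cac1 against cac3, 0.00161 for CUT701 and 0.0205 for CUT754 in cac3 against wild type, and 0.00704 for CUT680 in cac1 against cac2, each past the threshold there and not without the block.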
